A study of Homo sapiens with 6 samples.

Results

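The lysyl oxidases are the 5 genes LOX, LOXL1, LOXL2, LOXL3 and LOXL4, found by symbol among the 22701 genes of the deposited table; 3 of them (LOX, LOXL1 and LOXL2) were abundant enough to be tested. Polyadenylated RNA was sequenced from LX-2 cells, an established line of human hepatic stellate cells, which lay down collagen in the fibrotic liver. In 3 libraries (LIG) the cells had received TGF-β, at a labelled dose of 5 µg/mL, together with ligustilide at 20 µM, a phthalide of Angelica and Ligusticum roots. In the other 3 libraries (TGF-β) they had received TGF-β at the same dose alone. The comparison asks how ligustilide alters expression in TGF-β-treated cells; all 6 libraries carried TGF-β, and cells without it were not analysed here. How long the cells were treated, and whether replicates are separate cultures, is not in the labels, so the spread behind the p-values may be technical. LX-2 is a single cultured line, and no other stellate cell was measured.

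Lysyl oxidases are secreted copper-dependent amine oxidases that turn lysine and hydroxylysine residues of collagen and elastin into reactive aldehydes, which then form covalent crosslinks between fibres. LOX and LOXL1 are made with a propeptide that is cut off outside the cell, whereas LOXL2, LOXL3 and LOXL4 carry scavenger receptor cysteine-rich domains in front of the shared catalytic domain. Crosslinking by this family stiffens scar tissue and makes it harder to degrade, and in the liver it is known chiefly for LOX and LOXL2. LOX is also a textbook gene of the response to low oxygen and of the response to TGF-β.

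Values are FPKM, fragments scaled to gene length and library total, so that levels of different genes can be set side by side. The libraries held between 38401783 and 39260090 fragments. TGF-β replicate 2 and LIG replicate 3 stood apart from the other 4 libraries on the first principal component (55.0% of the variance), with summed FPKM of 362034 in LIG replicate 3 and 348518 in TGF-β replicate 2, against 324022 to 328949 in the others. Where a call depends on these libraries, the result is also given without both. They were singled out by the same expression values, so the adjusted p without them may be too small. Of 7 stellate cell or myofibroblast markers with a row in the table, 5 had a mean of at least 1 FPKM, COL1A1 and VIM among them, while DES and RELN were below 0.1 FPKM. The summed markers of endothelial cells (0.383 to 0.548 FPKM in LIG and 0.458 to 0.652 FPKM in TGF-β) and of macrophages and other leukocytes (1.21 to 1.28 FPKM in LIG and 1.34 to 1.41 FPKM in TGF-β) were low. The summed hepatocyte markers (3.30 to 4.88 FPKM in LIG and 3.54 to 4.07 FPKM in TGF-β) were almost all SERPINA1. The summed cholangiocyte or epithelial markers (11.2 to 11.9 FPKM in LIG and 13.6 to 13.9 FPKM in TGF-β) were mostly SOX9, with EPCAM and KRT19 below 0.1 FPKM, and their part in the results below was not tested.

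LOX was the member that fell with ligustilide. Its level in LIG was 0.470 of that in TGF-β, while the means of the other members were 12.3% to 23.1% lower and none of them passed the test (LOXL1 and LOXL2) or was abundant enough for it (LOXL3 and LOXL4). LOXL2 was by far the most abundant member in both groups, followed by LOX and LOXL1, and LOXL3 and LOXL4 were below 1 FPKM throughout. Of the 3 members tested, 1 fell, none rose and 2 did not pass. Over all 10695 genes tested, 0.505% were called lower with LIG, 0.187% were called higher and 0.692% were called in either direction.

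LOX encodes the founding lysyl oxidase, the crosslinker of fibrillar collagen and elastin (chromosome 5, 122063195 to 122078360, minus strand, GRCh38). It measured 15.9, 15.1 and 13.5 FPKM in LIG replicates 1 to 3, against 32.2, 32.0 and 30.5 FPKM in TGF-β replicates 1 to 3. The groups lay far apart, with the highest LIG library well below the lowest TGF-β library. The means were 14.8 ± 1.20 FPKM in LIG and 31.5 ± 0.919 FPKM in TGF-β (SD, n = 3 each). The change in log2(FPKM + 1) was -1.04 ± 0.07 (SE; 95% interval -1.21 to -0.87), with an adjusted p of 0.00185 by limma. LOX rested on 2815 to 6612 fragments per library, so that counting error was at most 1.88% of a value. In bulk RNA, less LOX transcript per cell and fewer cells that express LOX cannot be told apart. LOX shares 138 exonic bases with SRFBP1 on the opposite strand, and the sources used here do not say whether counting used strand. SRFBP1 was at 6.58 ± 0.390 FPKM in LIG and 6.56 ± 0.214 FPKM in TGF-β (SD, n = 3 each), a log2 change of 0.00 that was slightly below 0 (-0.02 each) after rescaling to TPM or quantile normalization.

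**Figure D1:**
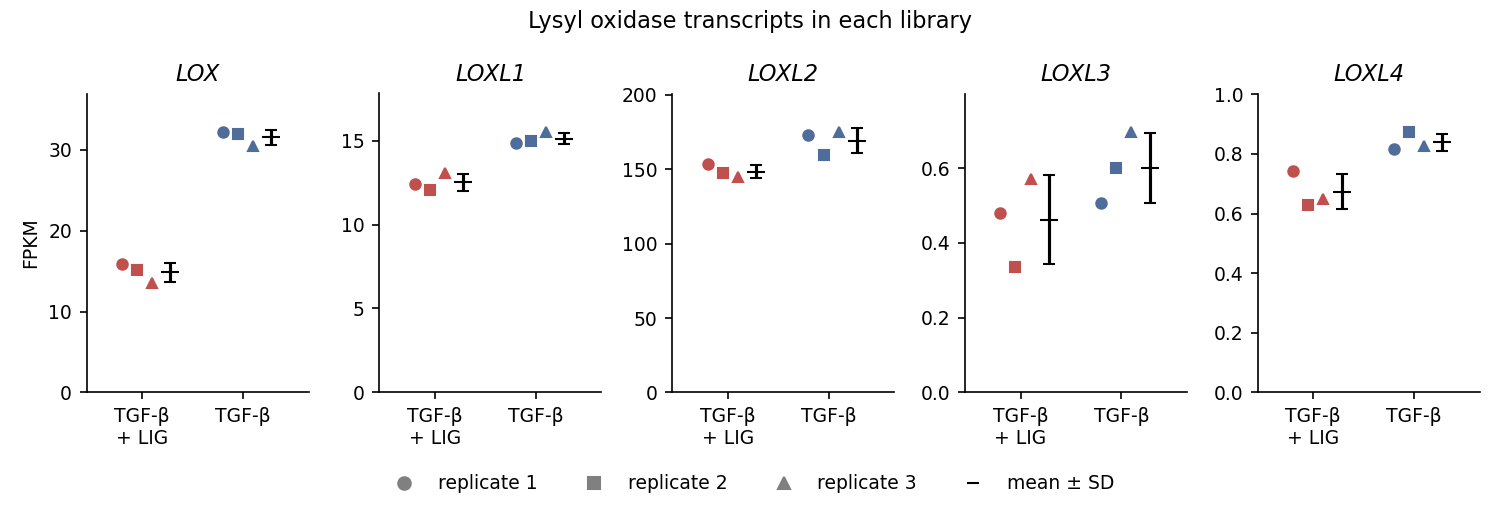
FPKM (vertical axes, each from 0 with its own scale) of the 5 lysyl oxidases in each library, with TGF-β + LIG on the left and TGF-β on the right of each panel; points are libraries, marked by replicate, and black bars are the mean ± SD. The LOX points lie at 13.5 to 15.9 FPKM in LIG and 30.5 to 32.2 FPKM in TGF-β, while LOXL3 is the member whose groups overlap.

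The sequence before the LOX start is shown because LOX was the member that fell and because this stretch holds a motif that the windows of LOXL1, LOXL3 and LOXL4 lack. The core of the hypoxia response element was searched as ACGTG on both strands in the 250 bases before a RefSeq start of LOX, LOXL1, LOXL3 and LOXL4, and it is in capitals below (as CACGT where it lies on the other strand). The first line is chr5:122078361-122078509, the part of the window upstream of every annotated LOX start. The second line gives LOXL4 for comparison, at chr10:98268251-98268444, the part of its window upstream of the annotated start. All are from RefSeq on GRCh38.p14, 5′ to 3′ on the minus strand, which is the coding strand of both genes.
LOX upstream: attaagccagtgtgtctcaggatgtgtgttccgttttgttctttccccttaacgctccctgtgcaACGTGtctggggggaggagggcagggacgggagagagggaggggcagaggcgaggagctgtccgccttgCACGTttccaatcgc
LOXL4 upstream: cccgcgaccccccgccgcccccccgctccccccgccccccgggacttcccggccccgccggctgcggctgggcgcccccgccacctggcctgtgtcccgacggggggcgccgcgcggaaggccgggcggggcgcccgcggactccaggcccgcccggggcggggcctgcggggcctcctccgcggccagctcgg

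The LOX window, before the most distal of its 3 RefSeq starts, held 4 matches to ACGTG, starting 185, 116, 98 and 42 bases before that start. Of these, 2 lay upstream of the annotated gene, as printed, and 2 (at 98 and 42) lay inside it, since another annotated transcript starts farther out. The windows of the other RefSeq starts of LOX lay inside the gene and held 1 match each. The windows of LOXL1, LOXL3 and LOXL4 held 0, and those of LOXL1 and LOXL3 lay inside the annotated genes. No window of LOXL2 was used here. Of 35116 windows of the same length, 18.5% held at least 1 match and 0.669% held at least 4; a gene can have several windows, and the palindrome CACGTG counts as 2 matches. The variant core GCGTG was in none of the 4 windows and in 32.2% of all windows. The SMAD-binding letters CAGAC had 1 match each in the LOX and LOXL1 windows, against 38.0% of windows with at least 1. Neither the antioxidant response core TGACNNNGC (10.9% of windows) nor the AP-1 letters TGANTCA (6.57% of windows) was in any of the 4. A match describes the letters and shows no binding. The LOX window was picked with its fall known and for its matches, so the count of matches tests no cause of that fall.

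LOXL2, which crosslinks fibrillar collagens and the collagen IV of basement membranes, is encoded on chromosome 8 (23297189 to 23425328, minus strand). It measured 153, 147 and 145 FPKM in LIG replicates 1 to 3, against 173, 159.5 and 175 FPKM in TGF-β replicates 1 to 3. Every LIG library was below every TGF-β library, and the lowest library of each group was the one that stood apart. The means were 148 ± 4.44 FPKM in LIG and 169 ± 8.38 FPKM in TGF-β (SD, n = 3 each), a log2 change of -0.19 ± 0.07 (SE; 95% interval -0.35 to -0.03, unadjusted) that did not pass (limma adjusted p = 0.495). Without both libraries that stand apart the log2 change was -0.21 and passed (limma adjusted p = 0.0117). With a mean of 158.8 FPKM over the 6 libraries, LOXL2 ranked 280th of the 22701 genes by level. LOXL2 shares 120 exonic bases with ENTPD4 on its own strand, and 178 with AC090197.1 on the opposite strand, which was not analysed here. ENTPD4 was at 23.7 ± 2.55 FPKM in LIG and 24.8 ± 2.27 FPKM in TGF-β (SD, n = 3 each).

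LOXL1, which acts mainly on elastin in elastic fibres, is encoded on chromosome 15 (73925989 to 73952137, plus strand). It measured 12.4, 12.1 and 13.1 FPKM in LIG replicates 1 to 3, against 14.9, 14.99 and 15.5 FPKM in TGF-β replicates 1 to 3. The groups did not overlap, and the spread within each was small. The log2 change was -0.25 ± 0.06 (SE; 95% interval -0.39 to -0.11, unadjusted) and did not pass over all genes (limma adjusted p = 0.200). With both libraries that stand apart left out, the log2 change was -0.29 and passed (limma adjusted p = 0.0111). In all 3 tested members LIG was below TGF-β in every library, which held for 6.73% of all genes tested (the opposite held for 9.07%). The unadjusted p was below 0.05 for each of the 3, as for 8.41% of all genes tested.

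LOXL1-AS1, a long non-coding RNA on the opposite strand that shares 335 exonic bases with it, measured 5.49, 4.85 and 4.65 FPKM in LIG replicates 1 to 3, against 6.99, 7.22 and 6.67 FPKM in TGF-β replicates 1 to 3. Its groups did not overlap either. The log2 change was -0.41 ± 0.08 (SE) and did not pass (limma adjusted p = 0.0667), although it passed with quantile normalization (adjusted p = 0.0452) and when both libraries that stand apart were left out (adjusted p = 0.0272). Without stated strand use, fragments of LOXL1 and LOXL1-AS1 in the shared stretch cannot be told apart.

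LOXL3 and LOXL4, the least abundant members, fell below the minimum mean of 1 FPKM for testing. LOXL4 (chromosome 10, 98247690 to 98268250, minus strand) measured 0.741, 0.629 and 0.650 FPKM in LIG replicates 1 to 3, against 0.818, 0.872 and 0.827 FPKM in TGF-β replicates 1 to 3. Its groups did not overlap, as was so in this direction for 7.11% of genes with a mean of 0.1 to 1 FPKM. The exact two-sided permutation p was 0.1, the smallest that 3 against 3 libraries can give. LOXL3 (chromosome 2, 74532414 to 74555690, minus strand) measured 0.479, 0.335 and 0.571 FPKM in LIG replicates 1 to 3, against 0.505, 0.600 and 0.695 FPKM in TGF-β replicates 1 to 3. Its groups overlapped (exact two-sided permutation p = 0.2). LOXL3 rested on 66 to 138 fragments per library and LOXL4 on 108 to 152, so that counting error alone came to 12.3% and 9.62% of the value in the lowest single library. Fitted with no filter on low values, the log2 change was -0.13 for LOXL3 (limma adjusted p = 0.846) and -0.14 for LOXL4 (adjusted p = 0.621). Rescaled to TPM, where both passed the filter, it was -0.25 for LOXL3 (adjusted p = 0.784) and -0.23 for LOXL4 (adjusted p = 0.702). Adding 1 before the log2 shrinks the changes of such low genes. Their mean FPKM were 23.1% lower in LIG for LOXL3 and 19.7% lower for LOXL4. LOXL4 shares 152 exonic bases with AL139241.1 on the opposite strand, which was not analysed here. LOXL3 shares 625 exonic bases with HTRA2 and 216 with DOK1, both on the opposite strand and both more abundant. HTRA2 was at 6.93 ± 0.695 FPKM in LIG and 6.32 ± 0.841 FPKM in TGF-β, and DOK1 at 6.34 ± 0.494 FPKM in LIG and 5.89 ± 0.497 FPKM in TGF-β (SD, n = 3 each). Without stated strand use, their fragments and those of LOXL3 in the shared stretches cannot be told apart.

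The order of the members by level was LOXL2, LOX, LOXL1, LOXL4 and LOXL3 in 6 of 6 libraries, but the distances changed. LOXL2 exceeded LOX by 9.64, 9.77 and 10.7 times in LIG replicates 1 to 3, against 5.39, 4.99 and 5.73 times in TGF-β replicates 1 to 3. LOX exceeded LOXL1 by 1.28, 1.251 and 1.03 times in LIG, against 2.17, 2.13 and 1.97 times in TGF-β. LOX and LOXL1 were thus nearly level in LIG replicate 3. Within each group, no 2 neighbours in this order had overlapping values. In LIG replicate 3, LOXL4 rested on 114 fragments and LOXL3 on 115. Their order there comes from the lengths behind the FPKM (4469 bases for LOXL4 and 5131 bases for LOXL3).

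The summed FPKM of the family was 183, 175 and 172 in LIG replicates 1 to 3, against 222, 208 and 222 in TGF-β replicates 1 to 3. The LIG mean (177 ± 5.35) was 18.6% below the TGF-β mean (217 ± 8.04; SD, n = 3 each), with an exact two-sided permutation p of 0.1, the smallest possible. Of the difference of -40.4 FPKM, LOXL2 made up 51.5%, LOX 41.4% and LOXL1 6.41%. LOXL2, the most abundant member, thus made up the larger part of this difference, although its own change did not pass. LOXL1 to LOXL4 together were at 162 ± 4.28 FPKM in LIG and 186 ± 8.51 FPKM in TGF-β (SD, n = 3 each; exact permutation p = 0.1).

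As a share of the summed FPKM, LOX made up 8.70%, 8.60% and 7.85% in LIG replicates 1 to 3, against 14.5%, 15.4% and 13.7% in TGF-β replicates 1 to 3. Its mean share was 8.38 ± 0.463% in LIG and 14.5 ± 0.834% in TGF-β (SD, n = 3 each), a difference of -6.16 percentage points. LOXL2 took up 83.8%, 84.0% and 83.9% in LIG, against 78.2%, 76.7% and 78.6% in TGF-β, a difference of 6.05 percentage points. The shares of both genes did not overlap between the groups, and each had an exact two-sided permutation p of 0.1, the smallest possible (0.25 after Benjamini-Hochberg adjustment over 5 shares). The share of LOXL1 was 7.09 ± 0.437% in LIG and 6.96 ± 0.253% in TGF-β (exact permutation p = 0.8), a difference that turned in sign without LIG replicate 3. LOXL4 held 0.380 ± 0.024% in LIG and 0.387 ± 0.028% in TGF-β (exact permutation p = 0.7), and LOXL3 held 0.261 ± 0.070% in LIG and 0.276 ± 0.044% in TGF-β (exact permutation p = 0.8). Shares add up to the whole, so the higher share of LOXL2 goes with a lower, not a higher, LOXL2 level.

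**Figure D2:**
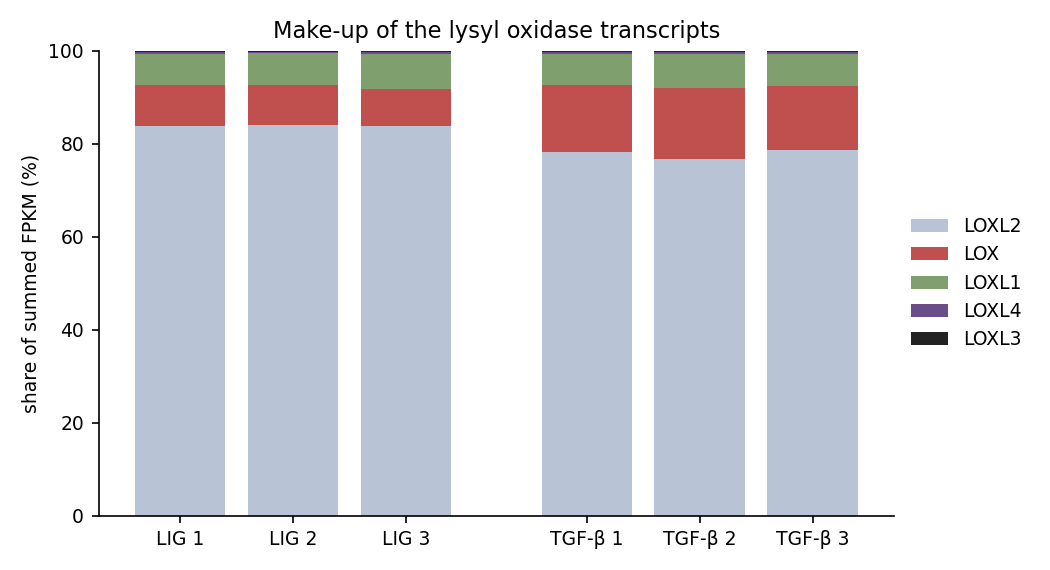
Share of each lysyl oxidase in the summed FPKM of the family (vertical axis, %, from 0 to 100), one stacked bar per library, LIG on the left and TGF-β on the right; numbers are replicates. The LOX segment spans 7.85% to 8.70% in LIG and 13.7% to 15.4% in TGF-β, and LOXL3 and LOXL4 are the thin bands at the top.

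Whether LOX changed more than the other members was tested on the log2 ratio of their FPKM within each library. The log2 ratio of LOX to LOXL2 was -3.32 ± 0.08 in LIG and -2.42 ± 0.10 in TGF-β (SD, n = 3 each), a difference of -0.90. For LOX to LOXL1 it was 0.24 ± 0.17 in LIG and 1.06 ± 0.07 in TGF-β (difference -0.82), and for LOX to LOXL4 it was 4.46 ± 0.11 in LIG and 5.23 ± 0.06 in TGF-β (difference -0.77). These 3 ratios did not overlap between groups and had an exact two-sided permutation p of 0.1 each (0.133 adjusted over 4 ratios), the smallest raw p possible. The ratio of LOX to LOXL3 did overlap (difference -0.69, exact permutation p = 0.2), and its difference was -0.46 without LIG replicate 3 and -0.45 without both libraries that stand apart. LOXL1 and LOXL2 did not separate from each other: their log2 ratio was -3.57 ± 0.09 in LIG and -3.48 ± 0.07 in TGF-β (difference -0.08, exact permutation p = 0.3).

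Of 55 genes listed as partners of the lysyl oxidases, 44 were abundant enough to be tested, 2 fell, none rose and 42 did not pass. The median log2 change of the 44 was -0.07, against 0.03 over all genes tested. LIG was below TGF-β in every library for 15 of the 44 (6.73% of all genes tested) and above it for 1 (9.07% of all genes tested). The lists were chosen with earlier results of these data known, so these counts cannot show that partner genes differ from other genes. The 2 that fell were COL3A1 and P4HA1. Without both libraries that stand apart, 17 of the 44 fell and none rose. The same fit called 497 of all genes in either direction, more of them lower than higher, against 74 with all libraries. Since the 17 all fell and the 497 include genes that rose, these are not like counts. The 17, and the list counts below without both libraries, therefore come from a fit that called far more genes of any kind. That fit rests on 2 libraries a group, kept because they lay together on the first principal component. Choosing libraries by the same values narrows the spread within groups, so the adjusted p of that fit may be too small.

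Collagens are the substrates of the crosslinking reaction. Of the 7 tested, COL3A1, which encodes type III collagen, fell, and 6 did not pass; the median log2 change was -0.385. COL3A1 measured 11.8, 9.04 and 9.04 FPKM in LIG replicates 1 to 3, against 19.7, 18.2 and 22.9 FPKM in TGF-β replicates 1 to 3. The groups did not overlap, and the log2 change was -0.96 ± 0.12 (SE; adjusted p = 0.0144 by limma). The call was lost without LIG replicate 2, TGF-β replicate 1 or TGF-β replicate 3. COL1A1 was at 503 ± 10.4 FPKM in LIG and 665 ± 41.0 FPKM in TGF-β (SD, n = 3 each; limma adjusted p = 0.118), and COL5A2 at 115 ± 10.3 FPKM in LIG and 149.9 ± 6.66 FPKM in TGF-β (adjusted p = 0.135). COL5A1 was at 95.1 ± 9.88 FPKM in LIG and 128 ± 16.2 FPKM in TGF-β (adjusted p = 0.264). Without both libraries that stand apart, these 3 were among 6 of the 7 collagen genes that fell. The other, COL1A2, did not pass there.

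Among other enzymes on the way to stable crosslinks, P4HA1 fell, 6 of 7 did not pass, and the median log2 change was -0.21. P4HA1, a catalytic subunit of the prolyl hydroxylase that stabilises the collagen triple helix, measured 24.7, 23.5 and 24.6 FPKM in LIG replicates 1 to 3, against 32.9, 35.4 and 34.6 FPKM in TGF-β replicates 1 to 3 (limma adjusted p = 0.0145). Its groups were clearly apart, but the call was lost without any 1 library other than LIG replicate 3. PLOD2, the lysyl hydroxylase that prepares telopeptide lysines for crosslinking, was at 99.7 ± 5.44 FPKM in LIG and 117 ± 0.638 FPKM in TGF-β (adjusted p = 0.299). P4HA2 was at 49.97 ± 2.12 FPKM in LIG and 58.0 ± 1.54 FPKM in TGF-β (adjusted p = 0.308), and the transglutaminase TGM2, which forms another kind of crosslink, at 24.0 ± 1.13 FPKM in LIG and 27.8 ± 1.12 FPKM in TGF-β (adjusted p = 0.354). With both libraries that stand apart left out, P4HA1, PLOD2 (adjusted p = 0.0185), P4HA2 (0.0165) and TGM2 (0.0304) fell, 4 of the 7.

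Proteins that mature the LOX and LOXL1 precursors, or that hold the proteases near them, had 5 tested members, none of which passed; the median log2 change was -0.215. Without both libraries that stand apart 4 of the 5 fell: FN1 (limma adjusted p = 0.000893), BMP1 (0.00807), PCOLCE (0.0240) and TLL1 (0.0397). The other, FURIN, was at 52.6 ± 2.17 FPKM in LIG and 48.4 ± 2.53 FPKM in TGF-β (SD, n = 3 each). Every LIG library was above every TGF-β library for FURIN, which passed neither with all libraries (limma adjusted p = 0.744) nor without both. TLL1, a tolloid-like protease able to cut the LOX propeptide, measured 4.55, 4.14 and 3.70 FPKM in LIG replicates 1 to 3, against 6.16, 5.75 and 5.42 FPKM in TGF-β replicates 1 to 3, without overlap (limma adjusted p = 0.111). BMP1, the main propeptide protease, was at 24.1 ± 0.644 FPKM in LIG and 28.2 ± 2.14 FPKM in TGF-β (SD, n = 3 each; adjusted p = 0.399). FN1, the fibronectin on which LOX is processed, was at 1072, 1074 and 736 FPKM in LIG replicates 1 to 3, against 1423, 1000.0 and 1402 FPKM in TGF-β replicates 1 to 3 (adjusted p = 0.633). Its lowest library in each group was the one that stood apart, and its log2 change was -0.41 with all libraries and -0.23 without LIG replicate 3. PCOLCE, an enhancer of BMP1, was at 11.7 ± 1.68 FPKM in LIG and 13.3 ± 0.356 FPKM in TGF-β (adjusted p = 0.712).

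Copper supply genes, which import copper or carry it within the cell, had 6 tested members. None passed, and the median log2 change was 0.07. SLC31A2, related to the copper importer SLC31A1, was at 11.9 ± 0.923 FPKM in LIG and 11.05 ± 1.35 FPKM in TGF-β (SD, n = 3 each; limma adjusted p = 0.889). ATP7A, the pump that loads copper onto secreted enzymes, was at 2.54 ± 0.691 FPKM in LIG and 2.40 ± 0.247 FPKM in TGF-β (adjusted p = 0.986; 95% interval of the log2 change -0.29 to 0.37). The copper chaperone genes COX17 and CCS had adjusted p of 0.873 and 0.902. Elastic fibre genes also had 6 tested members, none of which passed, with a median log2 change of -0.135. EFEMP2 (fibulin-4), which brings LOX to tropoelastin, was at 32.5 ± 2.52 FPKM in LIG and 36.0 ± 0.645 FPKM in TGF-β (adjusted p = 0.646), and FBLN5 (fibulin-5), which binds LOXL1, at 7.72 ± 0.337 FPKM in LIG and 8.68 ± 0.778 FPKM in TGF-β (adjusted p = 0.699). The fibrillin genes FBN1 and FBN2 had adjusted p of 0.789 and 0.951. Without both libraries that stand apart EFEMP2 (adjusted p = 0.0272) and FBN1 (adjusted p = 0.00486) fell and the other 4 did not pass; the log2 change of FBN1 was -0.29 with all libraries, -0.26 without both and -0.09 without LIG replicate 3 alone. No copper supply gene passed in that fit.

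Transcription factors and receptors upstream of the family had 13 tested members, none of which passed, with a median log2 change of -0.01. HIF1A, the oxygen-regulated factor that acts on LOX, was at 225, 222 and 186 FPKM in LIG replicates 1 to 3, against 243, 237 and 240.2 FPKM in TGF-β replicates 1 to 3. The groups did not overlap, with LIG replicate 3 lowest, and the log2 change of -0.19 did not pass (limma adjusted p = 0.638). It was -0.10 without LIG replicate 3 and -0.11 without both libraries that stand apart. HIF1A is regulated mainly at the protein level, which was not measured. SNAI1, a factor of the mesenchymal programme and a known partner of LOXL2, was at 8.15 ± 0.285 FPKM in LIG and 10.1 ± 0.825 FPKM in TGF-β (adjusted p = 0.264), and it fell when both libraries that stand apart were left out (log2 change -0.33, adjusted p = 0.0146), the 1 of the 13 that passed there. SNAI2 was at 40.1 ± 2.03 FPKM in LIG and 42.8 ± 3.13 FPKM in TGF-β (adjusted p = 0.855), and TWIST1 at 1.94 ± 0.317 FPKM in LIG and 2.26 ± 0.131 FPKM in TGF-β (adjusted p = 0.753).

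**Figure D3:**
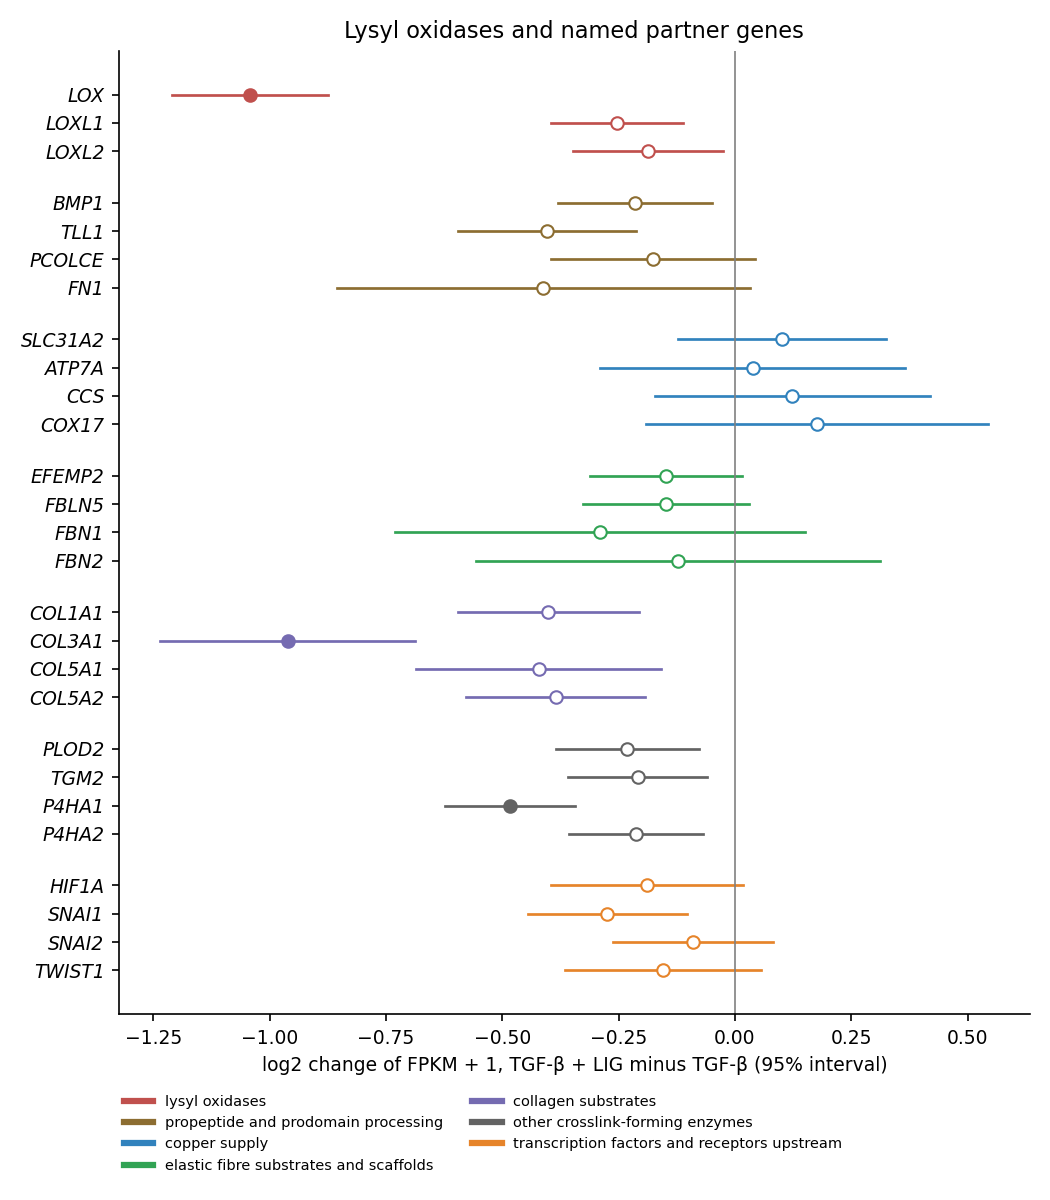
Change in log2(FPKM + 1), TGF-β + LIG minus TGF-β (horizontal axis), with the unadjusted 95% interval from limma as a line, for the 3 tested lysyl oxidases and 4 genes of each partner list; filled points passed the adjusted threshold over all genes and open points did not. LOX at -1.04 and COL3A1 at -0.96 lie farthest left, P4HA1 at -0.48 is the other filled point, and the 4 copper supply genes lie above 0 with intervals that include 0.

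Likeness to LOX was measured as the root-mean-square difference of log2(FPKM + 1), centred on each gene's mean over the 6 libraries, among 7122 genes with a mean of at least 5 FPKM. The 5 nearest genes were CPA4 (0.0994), MEST (0.126), COL3A1 (0.146), TGFB2 (0.150) and KRT17 (0.168), where LOX itself had a root-mean-square deviation of 0.525 from its own mean. CPA4, a secreted carboxypeptidase, was at 21.6, 18.0 and 17.4 FPKM in LIG replicates 1 to 3, against 36.3, 35.4 and 34.6 FPKM in TGF-β replicates 1 to 3. Like LOX, it was highest in LIG replicate 1 and lowest in LIG replicate 3 within its group. The call of TGFB2, a TGF-β ligand gene, was lost in 8 of 16 alternatives. TGFB2 was at 18.5, 17.0 and 11.7 FPKM in LIG, against 31.4, 28.5 and 29.5 FPKM in TGF-β, also lowest in LIG replicate 3. The order within LIG was not shared by all nearest genes. MEST (40.2, 39.4 and 39.9 FPKM in LIG replicates 1 to 3) and KRT17 (16.2, 13.4 and 18.2 FPKM) were lowest in LIG replicate 2. KRT17 was highest in LIG replicate 3, and COL3A1 was at 9.04 FPKM in both LIG replicates 2 and 3. The measure picks genes with a fall of like size, so that a shared profile over 6 libraries here is mostly a shared difference between groups.

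The genes nearest to LOXL1 were SLC2A1, the glucose transporter GLUT1 (0.029), and MYBL2, a cell cycle transcription factor (0.0337). Nearest to LOXL2 were the collagen receptor kinase gene DDR1 (0.0141) and the ephrin gene EFNB2 (0.0242). Nearest to LOXL4 were the mitotic kinase gene MASTL (0.0149) and OXCT1, an enzyme of ketone use (0.0156), and nearest to LOXL3 were CRELD1 (0.0342) and INSIG2, a brake on sterol synthesis (0.0394). On the scale of log2(FPKM + 1) the members themselves deviated little (0.132 for LOXL1, 0.105 for LOXL2, 0.107 for LOXL3 and 0.0755 for LOXL4). Adding 1 shrinks the deviations of LOXL3 and LOXL4, both below 1 FPKM, so their nearest genes match a shrunken profile. The mean FPKM in LIG was 0.769 of that in TGF-β for LOXL3, against 0.911 for CRELD1 and 0.922 for INSIG2. The same fraction was 0.803 for LOXL4, against 0.902 for MASTL and 0.916 for OXCT1.

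**Figure D4:**
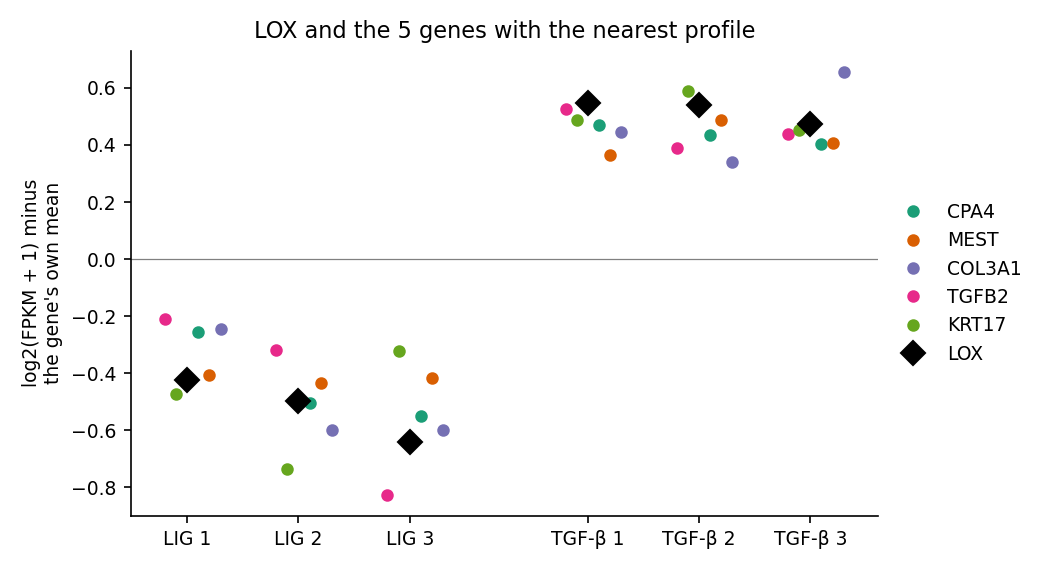
Values of log2(FPKM + 1) minus the gene's own mean over the 6 libraries (vertical axis) for LOX (black diamonds) and the 5 genes nearest to it (coloured points), by library, LIG on the left and TGF-β on the right; numbers are replicates. All 6 genes lie below 0 in the LIG libraries and above 0 in the TGF-β libraries, and LOX is lowest in LIG replicate 3.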

How the data were processed

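Per the file headers, the authors deposited FPKM for each of 6 libraries. Tools listed in the submitters' processing notes, with no roles, are DESeq2, fastp and HISAT2 2.1.0, and the build is GRCh38.p13; the counter, annotation and use of strand are not given in the sources used here. FPKM steps gave whole fragments (within 0.01) and library totals, used for depth and 1 alternative.

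Genes with a mean of at least 1 FPKM (10695) were tested on log2(FPKM + 1), which understates changes of low genes, with limma 3.58.1 in R 4.3.3 (group only, mean-variance trend, two-sided, Benjamini-Hochberg at 0.05). The fit was tried on simulated data with independent errors. Those data held no libraries that stand apart, so they do not vouch for the calls here. Single values had exact permutation tests. Members, partner lists (general knowledge) and tests were chosen with earlier results of these data known. Named were all members, genes with overlapping exons (AC090197.1 and AL139241.1 without values), up to 4 genes per list by smallest p and the nearest profiles. FURIN and COL1A2 were named as well. Positions are from GENCODE release 29 (GRCh38). Alternatives were other pseudocounts, filters, scalings and variance models, voom on fragments, a replicate block and left-out libraries.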

Additional observations from a re-analysis of the deposited data

How the results depend on the processing

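LOX fell in each of 16 alternative fits, with log2 changes of -1.09 to -0.97 and limma adjusted p of 4.4e-05 to 0.0334. LOXL1 (-0.29 to -0.23, adjusted p 0.0111 to 0.764) and LOXL2 (-0.23 to -0.16, adjusted p 0.0117 to 0.999) stayed below 0 in each and passed in 1, without both libraries that stand apart, where 3 lysyl oxidases, 17 partner genes and 497 of all genes were called. In the other alternatives 1 lysyl oxidase was called. Against 74 genes and 2 partner genes called, no filter gave 14 genes and 0 partner genes, and leaving out 1 library gave 11 to 93 genes and 0 to 2 partner genes. Fewer samples also give less power. COL3A1 missed the threshold with no filter (adjusted p = 0.114).

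The replicate block gave 22 genes and 1 partner gene, with LOX called (adjusted p = 0.0176) and P4HA1 not (adjusted p = 0.135). Deviations of same-numbered libraries correlated at 0.469, -0.574 and -0.337, and libraries did not each correlate best with their own number. Both libraries that stand apart weigh on these values (0.675 between LIG replicate 3 and TGF-β replicate 2). The correlations therefore cannot show whether same-numbered libraries were handled together, which the labels do not say.

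By recovered fragments not scaled to length, the share of LOX differed by -8.06 and that of LOXL2 by 7.83 percentage points, where the length behind the FPKM was 5298 bases for LOX and 3721 bases for LOXL2. Without both libraries that stand apart the share of LOX differed by -5.47 percentage points and the log2 ratio of LOX to LOXL2 by -0.80; the cause was not tested. The shares of LOX and LOXL2 and the 4 log2 ratios of LOX kept their sign in each alternative run.

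Small changes that missed the threshold turned in sign when 1 library was left out. Their log2 changes then ranged over -0.065 to 0.211 for ATP7A, -0.014 to 0.258 for CCS, -0.018 to 0.342 for COX17, -0.288 to 0.069 for FBN2, -0.135 to 0.029 for ENTPD4 and -0.033 to 0.041 for SRFBP1. One end of each range is the fit without LIG replicate 3. SRFBP1 was also at -0.016 by TPM and -0.020 by quantile normalization. Depth limits LOXL3 and LOXL4.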

Other observations

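LOX was also set against its substrates within each library, a comparison chosen after the values were seen. LOX amounted to 2.95 ± 0.200% of COL1A1 FPKM in LIG and 4.76 ± 0.388% in TGF-β (SD, n = 3 each), without overlap. It amounted to 15.6 ± 0.398% of COL5A1 in LIG and 25.0 ± 3.75% in TGF-β, and to 12.9 ± 0.211% of COL5A2 in LIG and 21.1 ± 1.42% in TGF-β, again without overlap. Each of these 3 had an exact two-sided permutation p of 0.1, the smallest possible (0.133 adjusted over 4 ratios). Set against COL3A1, LOX was at 135%, 167% and 149.7% in LIG replicates 1 to 3 and at 163%, 176% and 133% in TGF-β replicates 1 to 3, and the groups overlapped (exact permutation p = 0.8).

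Within the partner genes, COL1A2 rose in the fit without TGF-β replicate 3 (limma adjusted p = 0.0451), the 1 partner gene called in that fit. Of the 10695 genes tested, that fit called 11, with 6 of them higher. Its 3 LIG libraries held 5.08, 3.28 and 3.24 FPKM, against 0.675, 0.708 and 6.73 FPKM for TGF-β replicates 1 to 3. With all 6 libraries the groups overlapped and COL1A2 did not pass (adjusted p = 0.802).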
